A study of Mus musculus with 8 samples.

Results

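Naive T cells survive on interleukin 7 and circulate through the spleen and lymph nodes, and a small group of genes carries both abilities. The group described here has 9 listed genes, namely Il7r, Tcf7, Lef1, Ccr7, S1pr1, Klf2, Bcl11b, Foxo1 and Trat1, taken as a list of names with no cut on a measured value, though proposed with earlier results of these arrays known. An array feature carried the gene name of 8 of them in the tables used here, with 17 features in all out of 44170, and these 8 genes stand among 24171 named genes. Klf2, a zinc finger factor that drives S1pr1 expression, was not analysed here. The arrays came from spleen RNA of 4 miR-155 knockout mice, named Mim1-5, Mim1-6, Mim2-2 and Mim2-3, and 4 wildtype mice, named WT-1 to WT-4. By label, 2 animals of each genotype were female and 2 male. Mim1-5, Mim1-6, WT-1 and WT-3 carry the female label, and Mim2-2, Mim2-3, WT-2 and WT-4 the male label. The knockout is described only as lacking miR-155, with no allele, strain or age given in the sources used here, and the labels describe each array as a separate spleen.

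In the naive T cell, interleukin 7 from stromal cells binds a receptor made of the Il7r chain and the shared gamma chain Il2rg, which signals through JAK1, JAK3 and STAT5 and sustains Bcl2. FOXO1 keeps the genes of this state on, among them Il7r and Klf2, and KLF2 in turn supports S1pr1, the receptor for exit into the blood. CCR7 brings the cells to the T cell zone along CCL19 and CCL21, while TCF1 (the product of Tcf7), LEF1 and BCL11B hold T cell identity. Many of these genes are not private to T cells. B cells express Foxo1, S1pr1 and Ccr7, endothelial cells express S1pr1 and Klf2, and mature dendritic cells express Ccr7. In whole spleen RNA, fewer T cells and less RNA per T cell cannot be told apart.

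The microRNA missing from the knockout is printed here because its absence defines the comparison. Its mature form of 23 bases lies on chromosome 16 at chr16:84714143-84714165 on the plus strand of GRCm38.p6, per RefSeq. Capitals mark the seed, bases 2 to 8.
mmu-miR-155-5p: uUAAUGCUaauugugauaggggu

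Values are log2 of the array intensity that the authors deposited after RMA, which takes off background, brings the arrays to a common scale and reduces the probes of a feature to 1 value. Where a gene had several features, the one with the highest mean over the 8 arrays stands for it, and the others are described in a paragraph of their own. A set of 5000 random probes, which match no gene, read log2 4.94 to 5.24 and gives the background. All 8 genes lay above it on every array. Median intensities were 112.1 to 119.1 on the linear scale. The 2 Mim2 arrays stood apart, at r = 0.811 to 0.877 with the other 6 arrays over all features, where those 6 had r = 0.911 to 0.943 among themselves. Xist and the Y-linked Ddx3y did not separate the labelled sexes, with log2 intensities of 9.52 to 10.9 against 8.35 to 11.1 and of 6.82 to 8.83 against 6.26 to 8.78 in labelled females and males. The label of sex therefore stands below only as a label. All 19 measured B cell markers, which define the white pulp of the spleen, lay above the random probes on all arrays. So did 16 of 20 mammary markers, a list written with earlier results of these arrays known. Of all 24171 named genes, 8344 read no higher than the random probes on some array, and the others passed as well. Nothing about the tissue is read from these counts.

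S1pr1 was the most regular of the genes between the genotypes. This receptor for sphingosine 1-phosphate lets lymphocytes leave lymphoid tissue for the blood. On the log2 scale it read 10.27, 10.70, 11.16 and 11.34 in Mim1-5, Mim1-6, Mim2-2 and Mim2-3, and 9.66, 10.13, 9.13 and 9.63 in WT-1 to WT-4. Every knockout array lay above every wildtype array. The difference was 1.23 on the log2 scale, or 2.34-fold, with an SE of 0.29 and a 95% interval of 0.57 to 1.88. It did not pass in limma, a linear model with a shared variance estimate, with sex as an additive term (adjusted p = 0.262 over all 44170 features). The exact permutation test, taken two-sided with 70 possible arrangements, gave p = 0.0286, the smallest p that 4 arrays against 4 allow, unadjusted. The feature lies at chr3:115413354-115417694 in build MM9, the build of every array position below. No gene was past the threshold of 0.05 in this fit, which called 0 of 44170 features, a background of 0%, with 6122 features at an unadjusted p under 0.05. In limma the p-value sets the genotype difference against the spread left after genotype and labelled sex, with the shared variance estimate. The permutation test sets it against the other arrangements of these 8 arrays.

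Il7r, the interleukin 7 receptor chain on which naive T cell survival depends, was higher on most knockout arrays. It read 8.07, 7.28, 8.54 and 8.13 in Mim1-5, Mim1-6, Mim2-2 and Mim2-3, and 6.81, 7.47, 6.49 and 6.57 in WT-1 to WT-4. Only Mim1-6 lay under a wildtype array, WT-2, so 3 of 4 knockout arrays stood above all wildtype arrays. The means were 8.01 ± 0.52 (SD, n = 4) and 6.83 ± 0.44. The difference of 1.17, with a 95% interval of 0.42 to 1.92, did not pass (limma, adjusted p = 0.269), and the exact permutation test gave p = 0.0571. This feature lies at chr15:9435913-9459583.

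Trat1 encodes an adaptor that associates with the T cell receptor complex and stabilises it at the surface. Of all members it had the largest difference on its brightest feature, at chr16:48734802-48772069. Its log2 intensity was 8.98, 8.12, 8.64 and 8.12 on the knockout arrays in the order above, and 6.88, 6.93, 8.09 and 6.19 in WT-1 to WT-4. The groups did not overlap, but WT-3 came within a few hundredths of Mim1-6 and Mim2-3. The difference was 1.44, or 2.72-fold, with a 95% interval of 0.54 to 2.34 (limma, adjusted p = 0.266, and exact permutation p = 0.0286).

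**Figure D1:**
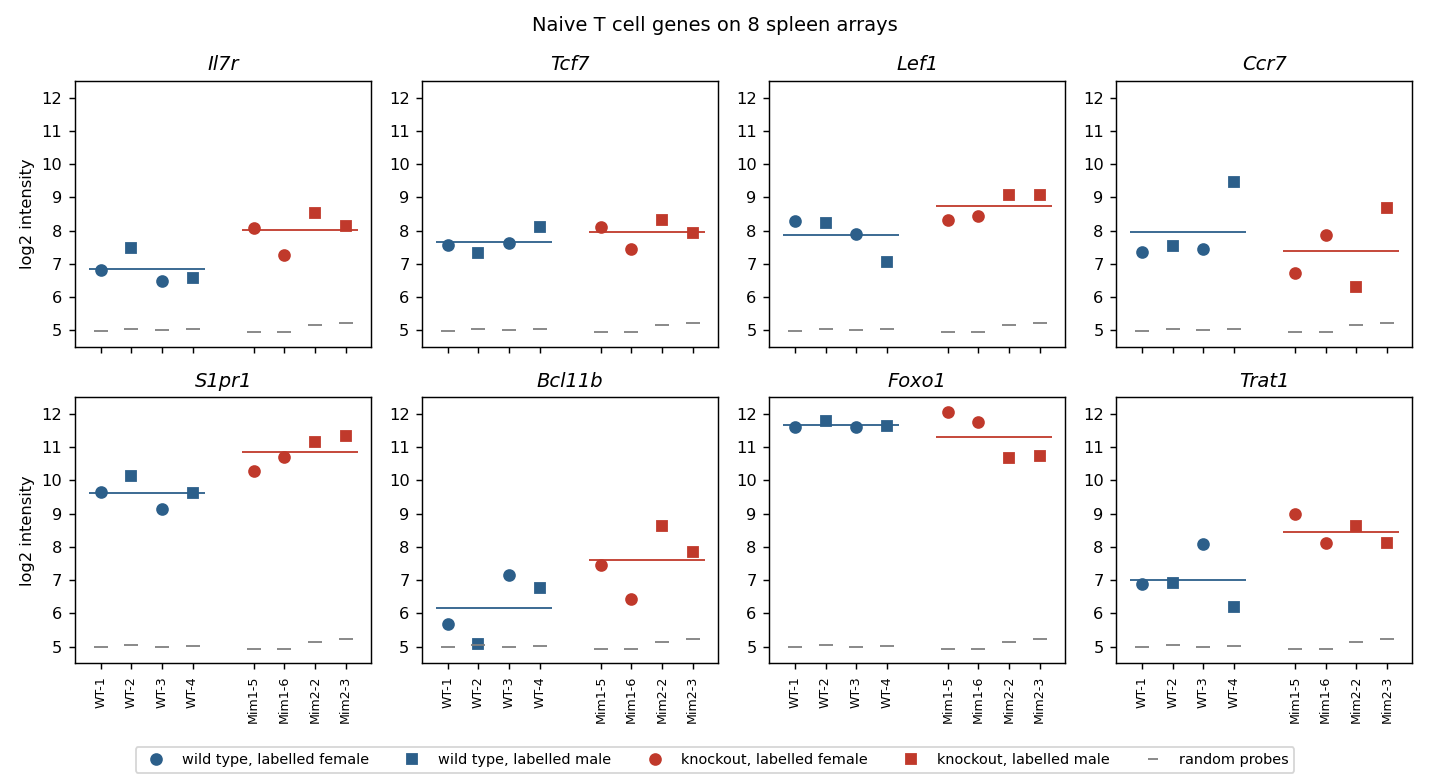
Log2 intensity of the brightest feature of each gene (y axis) on each array (x axis), wildtype in blue and knockout in red, circles for animals labelled female and squares for those labelled male, with a line at each group mean of 4 arrays and grey dashes at the random probes. S1pr1, Lef1 and Trat1 show no overlap between the genotypes, Ccr7 spreads from 6.31 to 9.47, and Foxo1 is at 10.69 and 10.73 on the Mim2 arrays against 11.60 to 12.05 on the other 6.

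Among the transcription factors, Lef1, a partner of TCF1 on shared DNA sites, was higher on the knockout arrays. It read 8.32, 8.45, 9.06 and 9.08 on the knockout arrays and 8.29, 8.24, 7.90 and 7.06 in WT-1 to WT-4. The gap between the groups was narrow, since Mim1-5 and WT-1 differed by a few hundredths, and both Mim2 arrays were the highest. The difference of 0.85 had a 95% interval of 0.0093 to 1.70 (limma, adjusted p = 0.357, and exact permutation p = 0.0286). It was 0.50 without WT-4 and 0.29 without both Mim2 arrays. Here and below, leaving out both Mim2 arrays compares Mim1-5 and Mim1-6 with WT-1 and WT-3, the labelled females. WT-2 and WT-4 then do not enter the difference, so the 2 settings are not separate. The size depends on which arrays are kept.

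Tcf7, which encodes TCF1, a factor of T cell commitment and of stem-like T cells, overlapped between the genotypes. Its values were 8.10, 7.46, 8.33 and 7.94 in the knockout and 7.58, 7.32, 7.64 and 8.11 in the wildtype arrays. The groups were interleaved, with WT-4 second highest of the 8. The difference of 0.29 had a 95% interval of -0.41 to 0.996 (limma, adjusted p = 0.696, and exact permutation p = 0.314). It was 0.11 without WT-2 and 0.17 without both Mim2 arrays. The brightest features of Tcf7 and Lef1 lie at chr11:52066105-52096516 and chr3:130815714-130926249.

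Bcl11b, a zinc finger factor without which T cell precursors do not commit to the lineage, varied more than any other member. It read 7.46, 6.44, 8.64 and 7.86 in the knockout and 5.67, 5.08, 7.15 and 6.76 in the wildtype arrays, a range of 3.56 over the 8. Mim1-6 lay below WT-3 and WT-4, and WT-2 lay within a few hundredths of its random probes at 5.04. The difference of 1.43 had a 95% interval of 0.13 to 2.73 (limma, adjusted p = 0.334, and exact permutation p = 0.114). It was 0.92 without WT-2 and 0.54 without both Mim2 arrays. The feature lies at chr12:109153422-109241424.

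Foxo1, the forkhead factor that maintains Il7r and the homing receptors, had a pattern of its own. Its intensity was 12.05 in Mim1-5 and 11.75 in Mim1-6 but 10.69 in Mim2-2 and 10.73 in Mim2-3, against 11.61, 11.80, 11.60 and 11.63 in WT-1 to WT-4. The wildtype arrays had an SD of 0.093, and the Mim2 arrays lay below all of them. The difference over the genotypes was -0.35, with a 95% interval of -1.10 to 0.40 (limma, adjusted p = 0.661, and exact permutation p = 0.4), and it was 0.30 without both Mim2 arrays, -0.19 without WT-2 and -0.54 without Mim1-5. The feature lies at chr3:52072719-52150296. On the same 2 arrays the mean of the mammary markers was 7.91 and 8.84, against 10.05 to 10.87 on the other 6. The mean of those mammary markers above the random probes on every array was then taken as a further term, a setting chosen after seeing the data. With this term the Foxo1 difference was 0.49 (limma, adjusted p = 0.900). The mammary list means were 7.91 to 10.08 in the knockout and 10.47 to 10.87 in the wildtype. The term therefore also takes out genotype difference, and the cause was not tested.

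Ccr7, the chemokine receptor that guides naive T cells to the T cell zone, did not follow Il7r or S1pr1. It read 6.74, 7.87, 6.31 and 8.69 on the knockout arrays and 7.36, 7.53, 7.44 and 9.47 in WT-1 to WT-4. WT-4 was the highest of all arrays and Mim2-2 the lowest, and the SD was 1.08 in the knockout and 1.02 in the wildtype. The difference of -0.55 had a 95% interval of -1.94 to 0.84 (limma, adjusted p = 0.716, and exact permutation p = 0.514). It was 0.018 without Mim2-2 and -0.93 without Mim2-3. Without both it was -0.09, the difference within labelled females, into which WT-4 does not enter either. Its 1 feature lies at chr11:99006273-99016316.

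Counted together, 6 of the 8 genes were higher in the knockout and 2 lower, with a median difference of 1.01, where 53.9% of all genes were higher and the median of all genes was 0.06. At an unadjusted p under 0.05, 5 of 8 were higher, namely Il7r, Lef1, S1pr1, Bcl11b and Trat1, against a background of 7.7% of genes, and 0 of 8 were lower, against 6.62%. In 3 of 8, Lef1, S1pr1 and Trat1, every knockout array lay above every wildtype array, against 5.27% of genes. Given how the genes were proposed, these counts describe them and are no test. Without both Mim2 arrays 7 of 8 were higher and 1 lower, and 1, S1pr1, had an unadjusted p under 0.05. The shares of all genes were not taken in that fit, so these counts have no background beside them. The median of the 8 genes was then 0.42, where that of all genes was 0.025. This is the difference between 2 knockout and 2 wildtype arrays labelled female. With all 8 arrays and the mean of all features of each gene, the median of the 8 genes was 0.70.

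Several genes were measured more than once, and their features share a gene, so they are no replicates of each other. All 5 features of Lef1 were higher in the knockout, by 0.52 to 1.09, but only the brightest separated the genotypes. All 3 features of Tcf7 were higher, by 0.29 to 0.82, and the largest value came from the feature at chr11:52065872-52070613, at the 3' side of the gene. Of the 2 features of Il7r, the brightest differed by 1.17 and the dimmer one, at chr15:9441652-9459613, by 0.21, with a 95% interval of -0.50 to 0.92. This dimmer feature read 5.49 to 6.39 over the 8 arrays, close to the random probes. Both features of S1pr1 (1.23 and 0.78) and both of Trat1 (1.44 and 1.37) separated the genotypes, the dimmer Trat1 feature lying under the random probes in WT-4. In all, 5 of 17 features had every knockout array above every wildtype array, against 4.7% of all features.

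**Figure D2:**
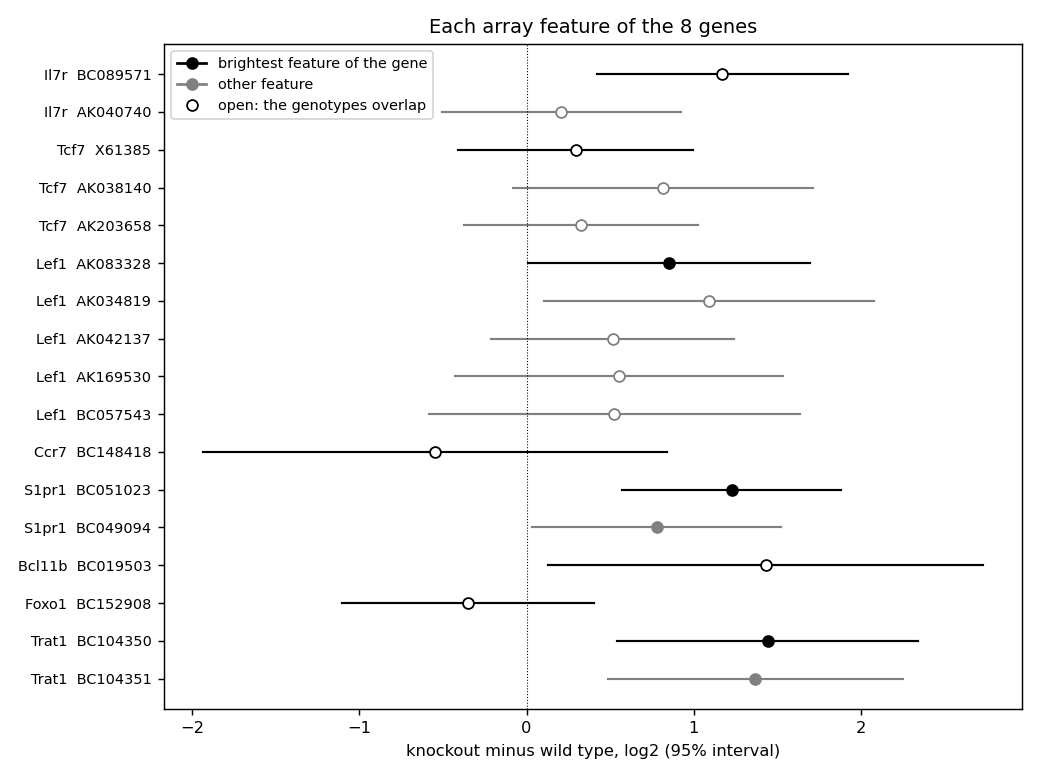
Knockout minus wildtype difference on the log2 scale (x axis) for each of the 17 features (y axis, gene and feature name), as points with 95% intervals from limma; black marks the brightest feature of a gene, grey the others, and filled points the features whose genotypes do not overlap. Features of Trat1 and S1pr1 lie between 0.78 and 1.44, those of Ccr7 and Foxo1 below 0.

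The genotype difference was also taken within each labelled sex. S1pr1 differed by 1.09 ± 0.39 (SE) in labelled females and 1.37 ± 0.39 in males, and Il7r by 1.03 ± 0.47 and 1.32 ± 0.47. Between the sexes these differed by 0.28, with a 95% interval of -1.01 to 1.58, and by 0.29, from -1.24 to 1.82. Trat1 differed by 1.07 and 1.82. For Lef1 the values were 0.29 ± 0.46 in females and 1.42 ± 0.46 in males, and for Bcl11b 0.54 ± 0.74 and 2.33 ± 0.74. Foxo1 was higher by 0.30 ± 0.34 in the knockout females and differed by -0.9995 ± 0.34 in males. The difference between the sexes itself was -1.30 for Foxo1, with a 95% interval of -2.41 to -0.18, and did not pass (limma, adjusted p = 0.311 over all features). For Lef1 it was 1.13, from -0.37 to 2.63, and for Bcl11b 1.79, from -0.62 to 4.20. This interaction called 0 of 44170 features, a background of 0%, with 5872 at an unadjusted p under 0.05. At that unadjusted p stood 1 of the 8 genes, Foxo1, against 13.6% of genes, a share near the background. Among the knockouts the label of sex coincides with the prefix Mim1 or Mim2, and they cannot be told apart.

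**Figure D3:**
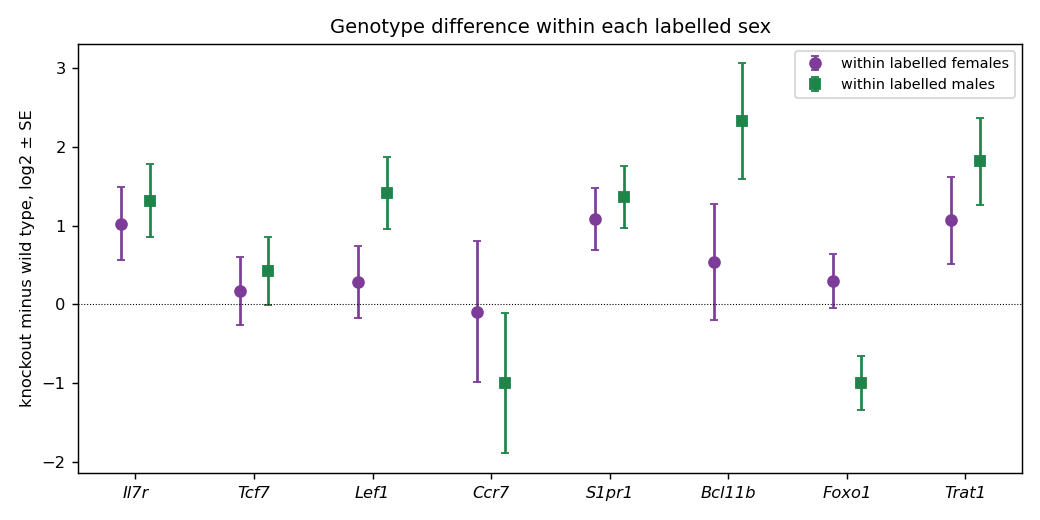
Knockout minus wildtype difference on the log2 scale (y axis) for each gene (x axis) within animals labelled female (purple circles) and male (green squares), 2 arrays per genotype in each, with bars of 1 SE from limma. S1pr1 and Il7r lie at 1.03 to 1.37 in both, and Foxo1 at 0.30 in females and -0.9995 in males.

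The T cell signal of each array was set beside the members through 19 measured pan T cell markers, genes of the receptor complex and its proximal signalling. Of these, 18 were higher in the knockout and 1 lower, with a median of 0.48, 6 at an unadjusted p under 0.05 higher and 1 lower, against 7.7% and 6.62% of all genes, and 0 past the threshold over all features. Cd2, Cd3g, Zap70 and Cd8a differed by 1.42, 1.04, 0.93 and 1.03 (limma, adjusted p = 0.262 to 0.287). The mean of the list was 8.35 to 9.12 on the knockout arrays and 7.99 to 8.45 on the wildtype arrays, and without both Mim2 arrays its median was 0.21.

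Each member was then expressed as its log2 intensity minus the mean of the 18 markers that lay above the random probes on all arrays, so that only unequal differences are left. S1pr1 remained above all wildtype arrays on every knockout array, with offsets of 1.62, 2.19, 1.78 and 2.06 against 1.2, 1.60, 0.98 and 1.52. Its difference was 0.59 (exact permutation p = 0.0286, unadjusted), and with the 4 receptor chains Cd3e, Cd3d, Cd3g and Cd247 alone as reference it was 0.49 with overlapping groups (exact permutation p = 0.0857). Against the 18 markers S1pr1 was the 1 gene of 8 with every knockout array above every wildtype array, as were 0.823% of all genes. The mean of these markers was itself 8.51 to 9.38 on the knockout arrays and 8.11 to 8.53 on the wildtype arrays. Subtracting it lowers the difference of every gene, and without this step the share was 5.27%. Nothing particular to S1pr1 is read from the smaller share. Il7r differed by 0.53 (exact permutation p = 0.0857), Trat1 by 0.80 (p = 0.171) and Bcl11b by 0.79 (p = 0.286). Lef1 differed by 0.21 (exact permutation p = 0.457), and Tcf7, Ccr7 and Foxo1 by -0.35, -1.19 and -0.99 (exact permutation p = 0.286, 0.286 and 0.171). Over the 8 genes the median was 0.37.

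**Figure D4:**
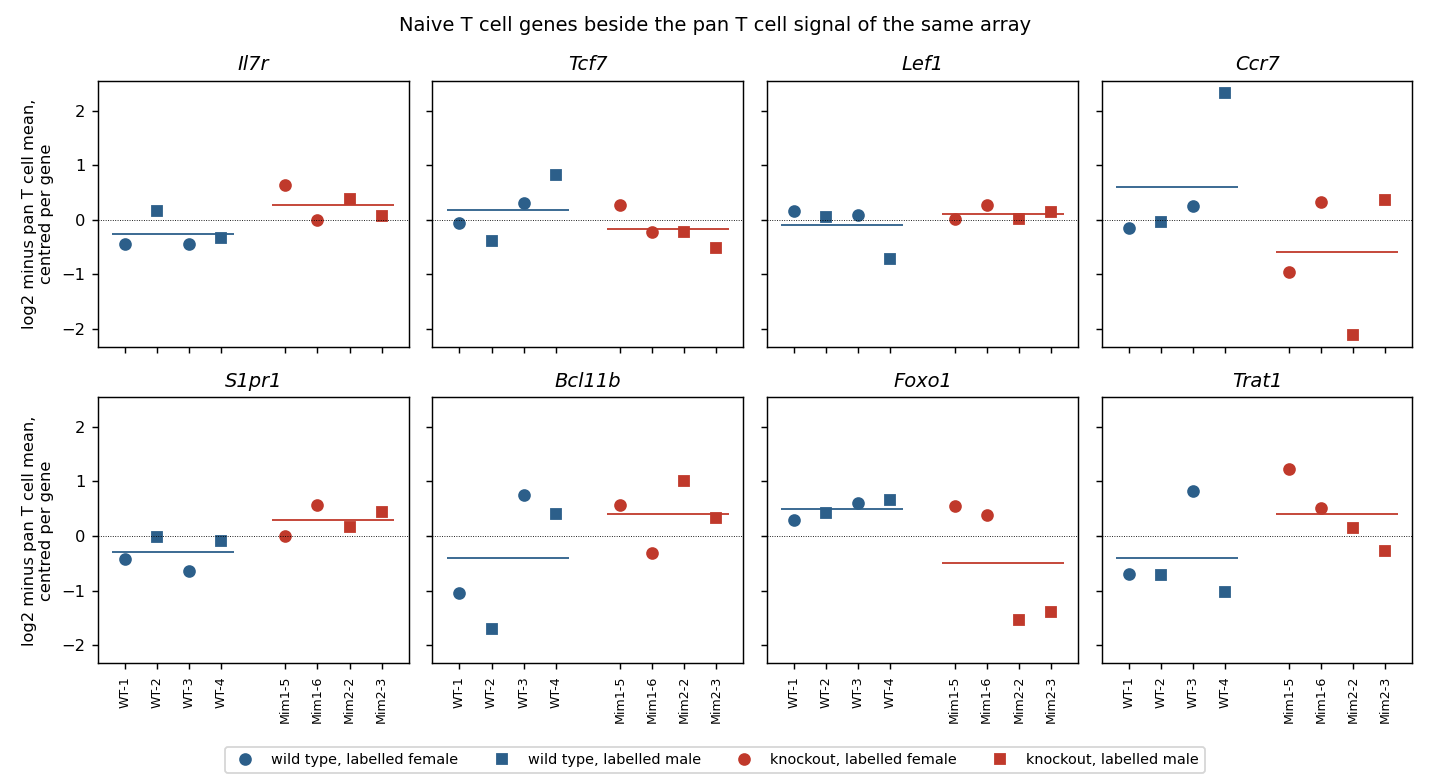
Log2 intensity of each gene minus the mean of 18 pan T cell markers on the same array, centred on the gene's own mean (y axis), for each array (x axis), wildtype in blue and knockout in red, with lines at the group means of 4 arrays. S1pr1 keeps its separation with a difference of 0.59, Lef1 differs by 0.21, and Foxo1 lies low on both Mim2 arrays.

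B cells, which also express several of these genes, had a larger median difference than the T cell markers. Of 19 measured B cell markers 17 were higher in the knockout, with a median of 1.24, 16 at an unadjusted p under 0.05 higher, against 7.7% of all genes, and 0 past the threshold. Their list mean was 10.17 to 11.11 on the knockout and 9.15 to 9.63 on the wildtype arrays, and none of the 19 lay under the random probes on any array. Without both Mim2 arrays their median was 0.93. Cr2, Blk, Pou2af1 and Fcrla differed by 2.66, 1.96, 1.48 and 1.75 (limma, adjusted p = 0.262 for each). Set against the B cell mean in place of the T cell mean, a reference chosen after seeing the data, S1pr1 differed by -0.0085 (exact permutation p = 1), Il7r by -0.06 (p = 0.886), Trat1 by 0.21 (p = 0.657) and Bcl11b by 0.20 (p = 0.771). Lef1 differed by -0.38 (exact permutation p = 0.143) and Ccr7 by -1.78 (p = 0.0571). Tcf7 and Foxo1 lay below every wildtype array on each knockout array by this measure, at -0.94 and -1.59 (exact permutation p = 0.0286 each). So did 47.2% of all genes, since the B cell mean was itself higher on the knockout arrays, and nothing particular to Tcf7 or Foxo1 is read from it. For S1pr1 the SD of these offsets was 0.32 in the knockout and 0.41 in the wildtype arrays.

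Markers of other cell types were measured on the same arrays, where 53.9% of all genes were higher in the knockout. The 15 endothelial markers, of which 12 were higher, had a median of 0.42, or 0.18 without both Mim2 arrays, with list means of 8.33 to 8.90 in the knockout and 8.03 to 8.46 in the wildtype. Among them Tek, the angiopoietin receptor, read 7.19 and 5.34, with 3 of 4 wildtype arrays above the random probes, so no size is given for it, while Tie1, Eng and Sox17 differed by 0.86, -0.73 and 0.80. Of 14 myeloid and dendritic markers 11 were higher, with a median of 0.73 and list means of 9.09 to 9.57 against 8.49 to 9.36, and the median was 0.13 without both Mim2 arrays. The scavenger receptor Marco of marginal zone macrophages differed by 0.92, and Vcam1, Siglech and Mertk by 1.27, 1.31 and 1.24. Of 7 NK cell markers 6 were higher, with a median of 0.70 and list means of 7.46 to 8.12 against 6.93 to 7.24, and the median was 0.44 without both Mim2 arrays. Klra1, Nkg7, Klrb1c and Klrk1 differed by 1.26, 0.68, 1.22 and 0.94. Unadjusted p was under 0.05 for 2 endothelial markers higher and 1 lower, and for 5 myeloid and dendritic markers higher and 1 lower. Of the NK cell markers 3 stood there higher and 0 lower, all against 7.7% and 6.62% of all genes.

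Outside the lymphoid and stromal lists, 13 of 14 erythroid markers were lower, with a median of -0.60 and list means of 9.42 to 10.34 in the knockout and 10.32 to 10.58 in the wildtype, and the median was -1.19 without both Mim2 arrays. The differences were -1.40 for Nfe2, -1.33 for Epor, -1.06 for Car2 and -0.96 for Tal1. Of the 20 mammary markers 18 were lower, with a median of -1.70 and list means of 7.91 to 10.08 against 10.47 to 10.87, and the median was -0.28 without both Mim2 arrays. In this list Csn1s1, Muc1 and Ltf differed by -3.63, -2.18 and -2.33, and Krt19 read 7.39 in the knockout and 5.24 in the wildtype, above the random probes on 3 of 4 wildtype arrays. Of the 14 pancreas markers 13 were higher, with a median of 1.51 and list means of 6.85 to 7.62 against 5.71 to 5.81, and for 8 of them some array read no higher than its random probes. Amy2b and Amy2a5 differed by 4.02 and 2.40. For Clps and Cpa1 only 2 and 1 of 4 wildtype arrays exceeded the random probes, so no size is given. Unadjusted p was under 0.05 for 0 erythroid markers higher and 5 lower, and for 1 mammary marker higher and 14 lower. Of the pancreas markers 12 stood there higher and 0 lower, all against 7.7% and 6.62% of all genes. In the 8 lists of cell types and tissues 0 genes passed over all features. The part of these lists in the differences of the naive T cell genes was not tested, other than by the T cell, B cell and mammary references given.

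**Figure D5:**
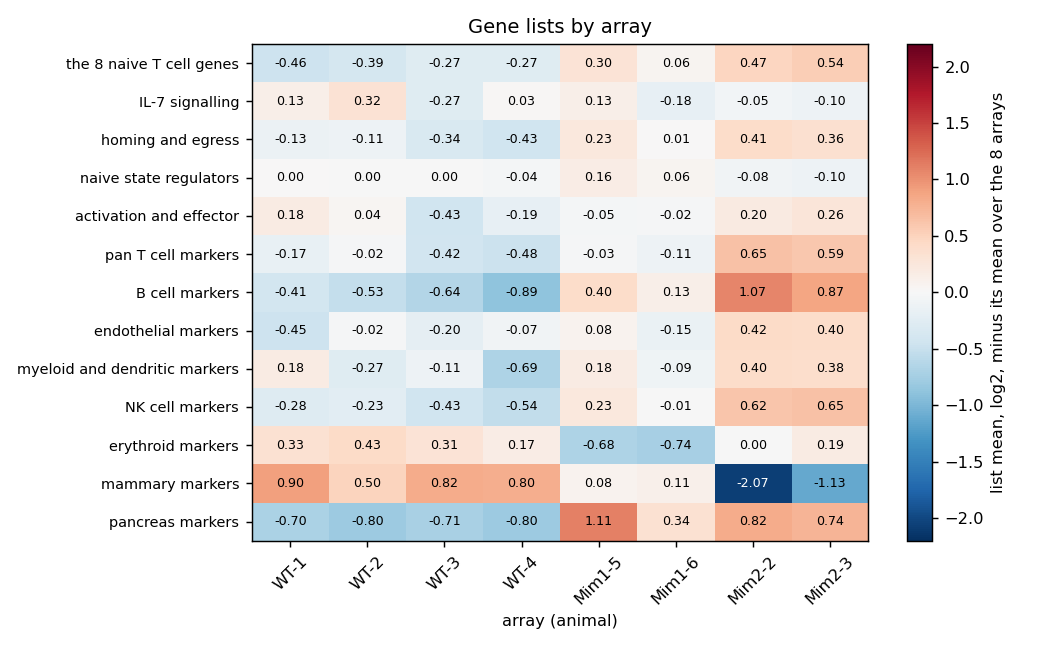
Mean log2 intensity of each gene list on each array (columns), minus the list's own mean over the 8 arrays, with the value in each cell and colour from blue (lower) to red (higher). The 8 naive T cell genes are above their own mean on the 4 knockout arrays (0.06 to 0.54) and below it on the 4 wildtype arrays (-0.46 to -0.27). The homing and egress, B cell and pancreas rows run the same way, and the mammary row reaches -2.07 in Mim2-2.

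Around Il7r, 16 measured genes of the interleukin 7 pathway showed no common direction, with 6 higher and 10 lower and a median of -0.05. At an unadjusted p under 0.05 stood 3 higher and 2 lower, against 7.7% and 6.62% of all genes, and 0 passed over all features. Il2rg, the shared gamma chain that pairs with Il7r, read 12.32 ± 0.43 (SD over 4 knockout arrays) against 10.91 ± 0.45 (4 wildtype arrays), with no overlap, a difference of 1.41. Bcl2, the survival factor downstream of the receptor, read 10.04 ± 0.085 and 9.40 ± 0.22, a difference of 0.64. Cish, a feedback inhibitor induced by STAT5, differed by -1.04, and Pik3r1, the regulatory subunit of PI3 kinase, by -1.64 (limma, adjusted p = 0.262 to 0.350 for these 4).

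Genes of homing and egress were mostly higher, 20 of 24 measured, with a median of 0.68, 12 at an unadjusted p under 0.05 higher and 2 lower, against 7.7% and 6.62% of all genes, and 0 past the threshold over all features. In 9 of them every knockout array lay above every wildtype array, against the 5.27% of genes. In 1 every knockout array lay below every wildtype array, as in 618 of all 24171 genes. Cxcl12, the stromal ligand of CXCR4, and Madcam1, the addressin that lines the marginal sinus, differed by 1.38 and 1.09. Chst4, a sulfotransferase of addressins, read 6.68 and 5.06, with 1 of 4 wildtype arrays above the random probes, so no size is given for it. Spns2, the transporter that releases sphingosine 1-phosphate from endothelium, differed by -1.05, the opposite way to the receptor S1pr1 (limma, adjusted p = 0.262 to 0.279 for these 4). The list means of the B cell, NK cell and pancreas markers were each higher on every knockout array than on any wildtype array. Those of the endothelial markers overlapped, with Mim1-6 below WT-2 and WT-4. The part of these lists in the homing genes was not tested.

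Regulators of the naive state beside the members were evenly spread, 10 of 21 higher and 11 lower, with a median of -0.06, 2 at an unadjusted p under 0.05 in each direction, near the 7.7% higher and 6.62% lower of all genes, and 0 past the threshold. Bach2, a repressor that restrains effector genes and is also strong in B cells, differed by 1.26, and Satb1, a chromatin organiser of T cells, by 0.78. Gata3 and Runx1, both also expressed outside T cells, differed by -1.23 and -0.83, and without both Mim2 arrays by -0.15 and -0.39. Genes of activated or effector T cells had 15 of 25 higher and a median of 0.06, where 53.9% of all genes were higher. At an unadjusted p under 0.05 stood 4 higher and 1 lower, against 7.7% and 6.62% of all genes, and 0 passed the threshold. Zeb2, Il2ra, Il2rb and Prdm1 differed by 1.41, 1.28, 0.92 and 0.97 (limma, adjusted p = 0.262 to 0.309 for these 4). They are named for the smallest p in the list, and 10 of the 25 genes were lower. Il2ra had a wildtype mean of 5.51, close to the random probes.

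Among themselves, the profiles of Il7r, S1pr1 and Lef1 lay closest together. Likeness was taken as the root mean square difference between log2 profiles over the 8 arrays, each centred on its own mean, and it was 0.36 for Il7r and S1pr1, 0.42 for Il7r and Lef1 and 0.43 for Lef1 and S1pr1. Ccr7 and Trat1 were farthest apart at 1.68. Tcf7, though a relative of Lef1, had a distance of 0.66 from it. Among 15819 other named genes above the random probes on all arrays, the nearest were Slamf7 and AI662270 for Il7r (0.17 and 0.16), Cdt1 and Haao for S1pr1 (0.15 and 0.18), Pdcd2l and Gm4890 for Lef1 (0.11 and 0.12), and Notch1 and Gm3038 for Tcf7 (0.15 and 0.14). For Foxo1 they were Nsfl1c and Acy1 (both 0.12), for Ccr7 Rbl1 and Krt40 (0.26 and 0.28), for Bcl11b Adgrg5 and Gm10406 (0.34 and 0.35), and for Trat1 Aasdh and Inpp4b (0.34 and 0.36). With so many genes and 8 arrays, near neighbours are always found, and these distances are a description.

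RefSeq promoter windows, from 250 bases before to 50 bases after a start site in GRCm38.p6, were on hand for 7 of the 9 genes, in 11 windows, and not for Ccr7 and S1pr1. They were searched on both strands for GTAAACA, a FOXO core, CTTTGAT and CTTTGTT, the TCF and LEF core in both its forms, CCACCC for KLF factors, CCGGAAG for ETS factors and GGACTTTCC for NF-kB. The 2 TCF and LEF forms share their first 5 letters but cannot match at the same place. Of all 32851 windows, 3.65% held GTAAACA, 3.73% CTTTGAT, 5.85% CTTTGTT, 31.5% CCACCC, 8.86% CCGGAAG and 0.344% GGACTTTCC. The windows printed are those of the genes that had an unadjusted p under 0.05 and a window, 1 window per gene, in the direction of the gene as the table gives them, with matched letters in capitals. They are Il7r at chr15:9529827-9530126 on the minus strand, the most upstream of 4 windows of Lef1 at chr3:131110047-131110346 on the plus strand, Bcl11b at chr12:108003365-108003664 on the minus strand and Trat1 at chr16:48772013-48772312 on the minus strand.
Il7r: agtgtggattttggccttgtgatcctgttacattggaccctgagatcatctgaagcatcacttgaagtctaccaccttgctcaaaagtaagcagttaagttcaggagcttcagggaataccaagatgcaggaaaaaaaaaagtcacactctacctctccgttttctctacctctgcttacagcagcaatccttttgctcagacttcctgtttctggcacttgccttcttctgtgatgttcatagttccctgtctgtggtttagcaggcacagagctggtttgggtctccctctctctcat
Lef1: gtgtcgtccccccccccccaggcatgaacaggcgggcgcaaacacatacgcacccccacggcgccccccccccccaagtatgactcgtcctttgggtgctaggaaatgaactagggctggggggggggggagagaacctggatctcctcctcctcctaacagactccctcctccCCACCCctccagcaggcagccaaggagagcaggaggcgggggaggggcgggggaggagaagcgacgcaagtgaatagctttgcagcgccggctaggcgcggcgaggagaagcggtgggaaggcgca
Bcl11b: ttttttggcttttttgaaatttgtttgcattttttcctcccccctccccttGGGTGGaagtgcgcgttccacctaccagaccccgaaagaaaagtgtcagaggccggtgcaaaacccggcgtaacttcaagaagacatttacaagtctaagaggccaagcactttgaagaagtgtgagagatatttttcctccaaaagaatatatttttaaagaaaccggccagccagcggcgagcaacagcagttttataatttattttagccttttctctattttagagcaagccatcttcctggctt
Trat1: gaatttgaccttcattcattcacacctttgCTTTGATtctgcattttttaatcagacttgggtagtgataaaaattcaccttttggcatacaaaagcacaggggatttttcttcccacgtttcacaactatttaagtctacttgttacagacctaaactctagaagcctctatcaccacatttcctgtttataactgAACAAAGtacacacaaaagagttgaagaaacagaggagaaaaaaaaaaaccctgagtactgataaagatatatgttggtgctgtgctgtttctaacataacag

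The window of Trat1 held both TCF and LEF forms, CTTTGAT at base -220 from the start and CTTTGTT on the other strand at base -53. Those of Lef1 and Bcl11b each held 1 CCACCC, at base -76 and, on the other strand, at base -199, and the window of Il7r held 0 of the 6 motifs. The FOXO core appeared in 1 of the 11 windows, the more downstream of the 2 of Tcf7, at base 2 after the start, beside 1 CCACCC and 1 CCGGAAG. The window of Foxo1 held 0 matches. A match describes the letters of the window and nothing about binding.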

How the data were processed

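Spleen RNA of 8 mice was measured on NimbleGen arrays in 1 colour, Cy3, per the labels. Each array has a table in which the authors deposited the linear intensity of each feature. RMA is named in the submitters' processing notes, without a version. Per the file headers, 44155 of 44170 features rest on 3 probes and positions are in MM9. Names follow the array design, and 21583 of 24203 Entrez numbers matched RefSeq's GRCm38.p6 table, used for current symbols. A deposited series table holds 21856 of the features with the same intensity values within a relative 1e-06.

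The log2 values were not normalized again. All 44170 features were fitted with limma 3.58.1 (R 4.3.3; lmFit, then eBayes) on genotype and labelled sex, with two-sided p-values adjusted after Benjamini and Hochberg over the whole table and called under 0.05, and again with the genotype by sex interaction. The script was checked on simulated data. Exact permutation tests ran over the 70 arrangements of the arrays on single genes, unadjusted, and no p was adjusted over a list. The rule for names took all members, up to 4 genes per list with the smallest p, and the 2 nearest genes per member. The members and lists were chosen with earlier results of these data known. Alternatives covered the sex term, variance model, normalization, filter, floor, array weights, source table, features per gene, references and left-out arrays. The number of arrays limits the precision.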

Additional observations from a re-analysis of the deposited data

Results flagged for a closer look

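Of 16 checks for a single distant array, 8 genes in each genotype, 2 were positive, where chance gives about 1 in 20. Ccr7 in WT-4 read 9.47, with the other wildtype arrays at 7.36 to 7.53. Foxo1 in WT-2 read 11.80, with the other wildtype arrays at 11.60 to 11.63, a small gap in a tight group. For Foxo1 the genotype difference within labelled males minus that within labelled females was -1.298, since both knockout females lay above both wildtype females and both knockout males below both wildtype males. This difference did not pass (limma interaction, adjusted p = 0.311).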

How the results depend on the processing

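Over 20 alternatives per gene the directions of Il7r, Tcf7, S1pr1, Bcl11b and Trat1 held in all 20, with 0 past the threshold and smallest adjusted p in limma of 0.123, 0.404, 0.0883, 0.194 and 0.123. Dropping the sex term or changing the variance model, filter, floor or source table returned the main difference by design. Those settings could not turn a direction, and only the others could. With the mammary mean Bcl11b was 0.11, Tcf7 0.04, Trat1 0.60, Il7r 0.64 and S1pr1 1.06, and with the pan T cell mean 1.15, 0.32, 0.95, 0.54 and 0.85. Lef1 turned to -0.23 with the pan T cell mean as a further term and to -0.0558 with the mammary mean. Ccr7 turned to 0.89 and 1.32 under these terms, and ran from -0.9321 (without Mim2-3) to 0.0179 (without Mim2-2) on leaving out 1 array. Foxo1 turned to 0.29 and 0.49, and to 0.30 without both Mim2 arrays. Both means differ between the genotypes, so these terms also take out genotype difference. The median of the 8 genes, 1.01, was 0.42 without both Mim2 arrays, 0.70 with the mean of all features, 0.69 with the T cell term, 0.55 with the mammary term and 0.78 over all 17 features. It ran from 0.73 to 1.15 on leaving out 1 array. The median against the T cell markers, 0.37, was -0.22 against the B cell markers and 0.26 to 0.39 on leaving out 1 array. With a mean trend and robust variances 16 features passed over the whole table, 0 of them from these genes, and the other fits over all features called 0. Without both Mim2 arrays the medians of the interleukin 7, naive regulator and effector lists turned to 0.0372, 0.2004 and -0.15. Those of the mammary, myeloid, endothelial, NK and pan T cell lists were nearer 0, at -0.28, 0.13, 0.18, 0.44 and 0.21, and that of the erythroid list farther, at -1.19. The B cell, homing and pancreas medians were also nearer 0, at 0.93, 0.51 and 1.37. The mammary term, the B cell reference and the lists without Mim2 arrays were chosen after seeing the data. The causes were not tested. No paired analysis was possible because the labels give the genotypes no shared numbers, and no block for slide or scan was fitted, as the tables used here name neither.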
